A study of Mus musculus with 10 samples.

Results

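The nuclear genes for subunits of the respiratory chain and ATP synthase were examined in tumors of B16-F10 cells, a mouse melanoma line. Members were chosen by gene symbol alone: Ndufa (without the assembly factors named Ndufaf), Ndufb, Ndufc, Ndufs, Ndufv, Uqcr, Cox4i, Cox5, Cox6, Cox7, Cox8 and Atp5 genes, and Sdha to Sdhd. This gave 85 members among the 17737 genes of the deposited count table. Of 99 annotated genes that match these symbols 14 were not analysed here. Of these, 39 carry complex I symbols, 4 complex II, 8 complex III, 17 complex IV and 17 ATP synthase symbols. In the WT tumors the B16-F10 cells overexpressed wild-type IL-18, and in the D69A tumors IL-18 D69A, in which alanine takes the place of aspartate at residue 69. Both kinds of cell were placed under the skin of the right flank of C57BL/6 mice, and 5 tumors of each kind were taken on day 11. They are numbered 2 to 6 for WT and 1 to 5 for D69A. No tumor without overexpression was included, and the labels do not say whether an implanted line was 1 clone, how old the mice were or whether each tumor came from its own mouse. The p-values therefore measure the spread between these samples.

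The respiratory chain moves electrons from NADH (complex I) and from succinate (complex II) through ubiquinone, complex III and cytochrome c to complex IV, where oxygen is reduced. Complexes I, III and IV pump protons across the inner mitochondrial membrane, and ATP synthase uses the returning protons to make ATP. Each of these except complex II also holds subunits encoded in mitochondrial DNA, so its assembly draws on both genomes. Several complex IV subunits exist as paralogs, one made in most tissues and one mainly in muscle, lung or testis.

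Levels are given as CPM, the count of a gene scaled to library size with TMM factors, and each is a level in a whole tumor of melanoma and host cells. Fewer cells of a type and less RNA per cell cannot be told apart in such data. Total counts lay between 25904345 and 37578722. Melanocyte markers identified the tumors as pigment cell tissue, with 7 of 10 markers higher in D69A tumors, 0 lower and no marker at 0. Their summed level was 16836 to 20896 CPM in WT and 24803 to 31736 CPM in D69A tumors. Of the 10 leukocyte markers 9 could be tested and 8 were lower in D69A tumors, and their summed level was 562 to 1491 CPM in WT and 418 to 551 CPM in D69A tumors. All 6 fibroblast markers were lower too (summed level 2177 to 5762 CPM in WT and 345 to 1303 CPM in D69A tumors). The part of these host and pigment cell shifts in the values below was not tested.

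The common subunits changed little, and those past the threshold were nearly all slightly higher in D69A tumors. Of 82 members with enough counts to test, 20 (24.4%) were higher and 3 (3.66%) lower at an adjusted p below 0.05, by the quasi-likelihood test of edgeR and Benjamini-Hochberg adjustment over 13798 genes. Among all tested genes 43.5% passed, 18.8% higher and 24.7% lower, so the share of higher members lay near the background, and the share of lower members below it. The median log2 fold change of the members was 0.09, against 0.00 over all tested genes. The 20 higher members rose by 1.10- to 1.28-fold. CPM of the groups did not overlap for 8 higher and 2 lower tested members, against 12% and 17.4% of all tested genes. The 3 members too low to test, Cox6b2, Cox7b2 and Cox8b, are described with the isoforms. Of the 20 higher members 12 passed in each of the 10 fits that left out 1 tumor, and 11 of these also passed without TMM scaling. The count was 13 without WT tumor 3, 13 with library size only and 14 without WT tumors 3 and 4 and D69A tumor 1, which were richest in skeletal muscle markers. With library size only the median of the members was 0.05 and that of all genes -0.04.

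**Figure D1:**
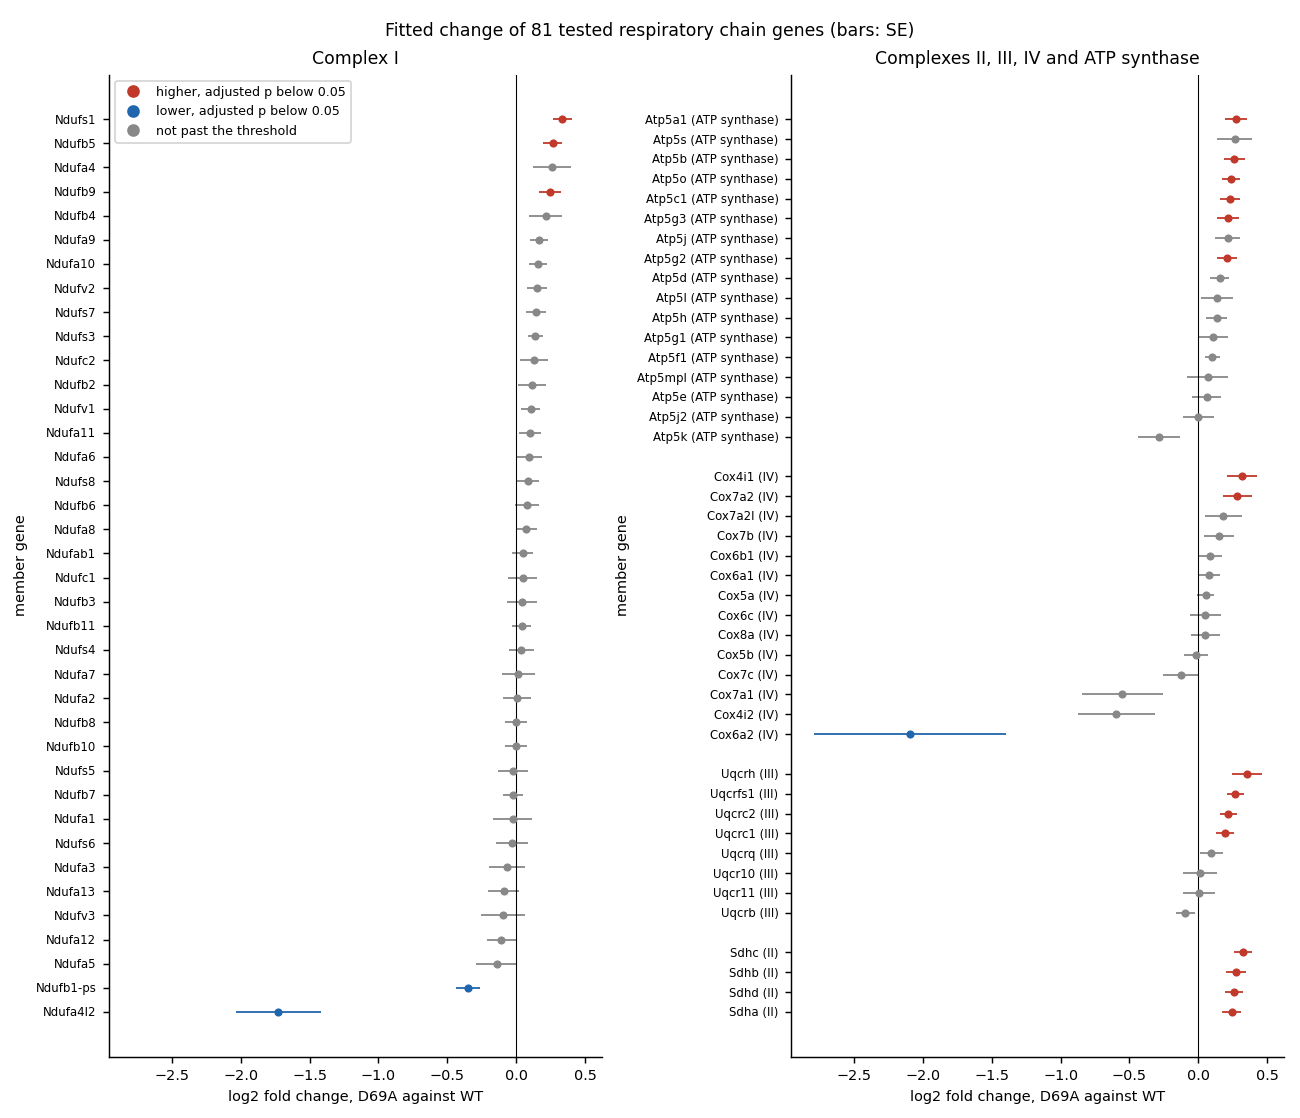
Fitted log2 fold change of D69A against WT tumors for 81 of the 82 tested members, with 1 point per gene, bars for the SE and complex I in the left panel. Most points lie within 0.4 of 0, all 4 complex II genes are higher, and the widest departures are the decreases of Ndufa4l2 (-1.73) and Cox6a2 (-2.10).

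The summed level of all 85 members showed the same small shift and a wide spread between tumors. It was 13848, 11592, 13115, 11793 and 12920 CPM in WT tumors 2 to 6, and 13386, 13455, 15603, 14405 and 14772 CPM in D69A tumors 1 to 5. The groups overlapped, with WT tumor 2 above D69A tumors 1 and 2, and the lowest sums stood in WT tumors 3 and 5. Those tumors also had the highest leukocyte marker sums, 1346 and 1491 CPM, and the highest fibroblast marker sums, 4899 and 5762 CPM. By complex, the sums of complex II and ATP synthase did not overlap between groups. Complex II summed to 609 to 715 CPM in WT and 755 to 855 CPM in D69A tumors. ATP synthase summed to 4990 to 6030 CPM in WT and 6101 to 6790 CPM in D69A tumors, with means of 5465 and 6402 CPM. Atp5b and Atp5a1 gave most of it, with means of 2196 and 1171 CPM in WT and 2636 and 1417 CPM in D69A tumors. Of the 17 ATP synthase members 2 were higher without overlap by themselves, a share near the 12% of all tested genes. The sums of complexes I, III and IV overlapped.

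Complex II, succinate dehydrogenase, is shared by the respiratory chain and the TCA cycle. All 4 of its genes rose, against 18.8% of all tested genes. Sdha on chromosome 13 (74322254 to 74350280 in mm10) encodes the flavoprotein that oxidizes succinate. It stood at 275.3, 221.4, 226.9, 224.2 and 260.2 CPM in WT tumors 2 to 6 and at 275.4, 282.3, 300.3, 278.2 and 295.1 CPM in D69A tumors 1 to 5. The highest WT and the lowest D69A tumor nearly touched, and the log2 fold change was 0.24 (SE 0.07, edgeR adjusted p = 0.0152). Sdhb on chromosome 4 (140961203 to 140979193) encodes the iron-sulfur subunit. It was 170.9, 159.4, 174.7, 132.5 and 169.1 CPM in the WT tumors and 185.5, 196.2, 203.0, 197.6 and 193.7 CPM in the D69A tumors, again without overlap (log2 fold change 0.28, SE 0.07).

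Sdhc on chromosome 1 (171127165 to 171150603) and Sdhd on chromosome 9 (50596357 to 50603812) encode the membrane anchors that bind ubiquinone. Sdhc stood at 117.3, 108.3, 112.7, 114.7 and 124.2 CPM in WT and at 123.5, 143.9, 157.6, 149.96 and 147.5 CPM in D69A tumors, where D69A tumor 1 lay just under WT tumor 6. Its log2 fold change of 0.32 (SE 0.07) was the largest in the complex. Sdhd stood at 152.0, 142.1, 158.7, 137.6 and 157.1 CPM in WT and at 170.3, 170.9, 194.1, 192.4 and 166.2 CPM in D69A tumors, without overlap (log2 fold change 0.26, SE 0.06). All 4 calls held in each fit without 1 tumor. With the 3 tumors richest in skeletal muscle markers left out 3 of 4 held, and Sdha was at an edgeR adjusted p of 0.104. Summed complex II CPM over summed complex I CPM, a ratio within a tumor that no library scaling alters, was 0.19, 0.20, 0.18, 0.19 and 0.21 in WT tumors 2 to 6. In D69A tumors 1 to 5 it was 0.22, 0.24, 0.21, 0.21 and 0.21, with D69A tumor 3 just below WT tumor 6.

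Promoter sequences of members that rose together are shown because nuclear respiratory genes are known for shared binding sites of NRF1, of GABP, an ETS family factor, and of YY1. They come from RefSeq (GRCm38.p6) and run from 250 bases before to 50 bases after the gene start, in which 3 motifs were searched on both strands: GCATGCG, the core of the NRF1 site, CCGGAAG, an ETS site, and ATGGCGG, a part of the YY1 site. None of these motifs is contained in another. Capitals mark the matches, and each sequence reads 5′ to 3′ on the gene's strand. The promoter shown for Sdha holds no match, Sdhb holds an NRF1 core and an ETS match, Sdhd an ETS match on the opposite strand and Atp5b a YY1 part on the opposite strand. The promoters of Uqcrfs1 and Atp5o, not shown, hold no match.
Sdha, chr13:74350191-74350490, minus strand: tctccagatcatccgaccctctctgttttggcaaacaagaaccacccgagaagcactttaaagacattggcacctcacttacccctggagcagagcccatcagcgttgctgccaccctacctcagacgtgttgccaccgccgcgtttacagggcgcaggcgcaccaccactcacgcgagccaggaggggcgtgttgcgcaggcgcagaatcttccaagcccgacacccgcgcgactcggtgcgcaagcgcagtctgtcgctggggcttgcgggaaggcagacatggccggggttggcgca
Sdhb, chr4:140961021-140961320, plus strand: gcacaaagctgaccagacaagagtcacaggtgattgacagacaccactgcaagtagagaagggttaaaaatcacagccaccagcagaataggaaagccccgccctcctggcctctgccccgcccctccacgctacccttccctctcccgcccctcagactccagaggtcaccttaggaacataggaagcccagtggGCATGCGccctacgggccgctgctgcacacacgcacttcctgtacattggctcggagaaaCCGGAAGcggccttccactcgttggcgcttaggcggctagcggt
Sdhd, chr9:50603800-50604099, minus strand: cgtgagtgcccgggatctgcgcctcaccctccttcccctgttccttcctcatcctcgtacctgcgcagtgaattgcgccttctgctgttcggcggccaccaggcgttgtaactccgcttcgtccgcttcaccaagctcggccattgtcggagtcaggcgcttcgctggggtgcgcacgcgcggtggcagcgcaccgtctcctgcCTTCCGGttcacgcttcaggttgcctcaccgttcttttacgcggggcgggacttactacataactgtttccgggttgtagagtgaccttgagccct
Atp5b, chr10:128083057-128083356, plus strand: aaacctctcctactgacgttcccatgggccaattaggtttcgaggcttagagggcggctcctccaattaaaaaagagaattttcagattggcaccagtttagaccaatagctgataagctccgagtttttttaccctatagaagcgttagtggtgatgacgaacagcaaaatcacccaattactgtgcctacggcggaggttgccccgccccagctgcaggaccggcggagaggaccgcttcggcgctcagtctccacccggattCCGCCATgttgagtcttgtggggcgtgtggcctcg
Promoters were matched for 70 of 85 members, 67 by symbol and 3 by a RefSeq synonym. No entry was matched for 15 members, among them Atp5a1, Cox4i1, Cox4i2, Cox6a2, Ndufa4l2, Ndufb9, Ndufs1, Sdhc, Uqcrb and Uqcrc2. The NRF1 core stood in 15.7% of member promoters and 4.0% of the 27025 genes with a promoter in the table, the ETS site in 22.9% and 9.9%, and the YY1 part in 14.3% and 4.7%. At least 1 of the 3 motifs was held by 7 of 13 higher members with a promoter (53.8%), by 23 of 53 members that did not pass the threshold (43.4%) and by 16.6% of all genes.

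Complex I, the NADH dehydrogenase, had 4 of 39 members higher (10.3%, against 18.8% of all tested genes) and 2 lower (5.13%, against 24.7%). The median log2 fold change of complex I was 0.05. Of the 7 nuclear genes for its core subunits, which carry the flavin and iron-sulfur clusters or bind ubiquinone, 2 rose, Ndufs1 among them. The other 5 did not pass, with log2 fold changes from 0.08 to 0.15. Ndufs1 on chromosome 1 (63143596 to 63176833) encodes the largest subunit. It stood at 221.7, 188.3, 207.9, 185.7 and 227.5 CPM in WT and at 246.1, 251.8, 273.2, 251.3 and 276.9 CPM in D69A tumors. Every D69A tumor was above every WT tumor, with a log2 fold change of 0.33 (SE 0.07, edgeR adjusted p = 0.00312).

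Accessory subunits of complex I surround the core and are needed for its assembly and stability. Of 31 genes listed for them, Ndufa4 included, 2 rose (Ndufb5 and Ndufb9) and Ndufb1-ps fell, and their median log2 fold change was 0.04. Ndufb5 stood at 74.3, 70.7, 79.2, 74.99 and 69.6 CPM in WT and at 83.2, 85.6, 103.3, 87.5 and 84.1 CPM in D69A tumors, without overlap (log2 fold change 0.27, SE 0.07). Ndufb9, the complex I member with the highest level per exon length, was 285.3 ± 17.0 CPM in the WT group and 338.7 ± 39.5 CPM in the D69A group (n = 5 each, SD), and its highest tumor was D69A tumor 3 at 405.1 CPM. Its call was lost without WT tumor 3 (edgeR adjusted p = 0.0534) or WT tumor 6 (edgeR adjusted p = 0.0541). Of the Ndufb9 exon sequence 19.5% is shared with Gm49356 on the same strand. Ndufab1 encodes the mitochondrial acyl carrier protein, which also serves lipoic acid synthesis, and gave 79.8 ± 7.43 CPM in the WT group and 82.5 ± 6.44 CPM in the D69A group (n = 5 each, SD; log2 fold change 0.05, not past the threshold).

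Ndufb1-ps on chromosome 12 (101968090 to 101977068) was the common member that fell. The GENCODE annotation lists it as a long noncoding RNA at a bidirectional promoter, and RefSeq lists the symbol as a synonym of Ndufb1, a complex I subunit gene. It stood at 29.4, 24.7, 26.8, 26.3 and 24.9 CPM in WT and at 20.5, 17.2, 23.0, 21.9 and 21.1 CPM in D69A tumors. The groups did not overlap, and the log2 fold change was -0.35 (SE 0.09, edgeR adjusted p = 0.00835). Of its exon sequence 12.7% lies opposite exons of Cpsf2, and reads of the 2 genes cannot be told apart there unless strand was used in counting.

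**Figure D2:**
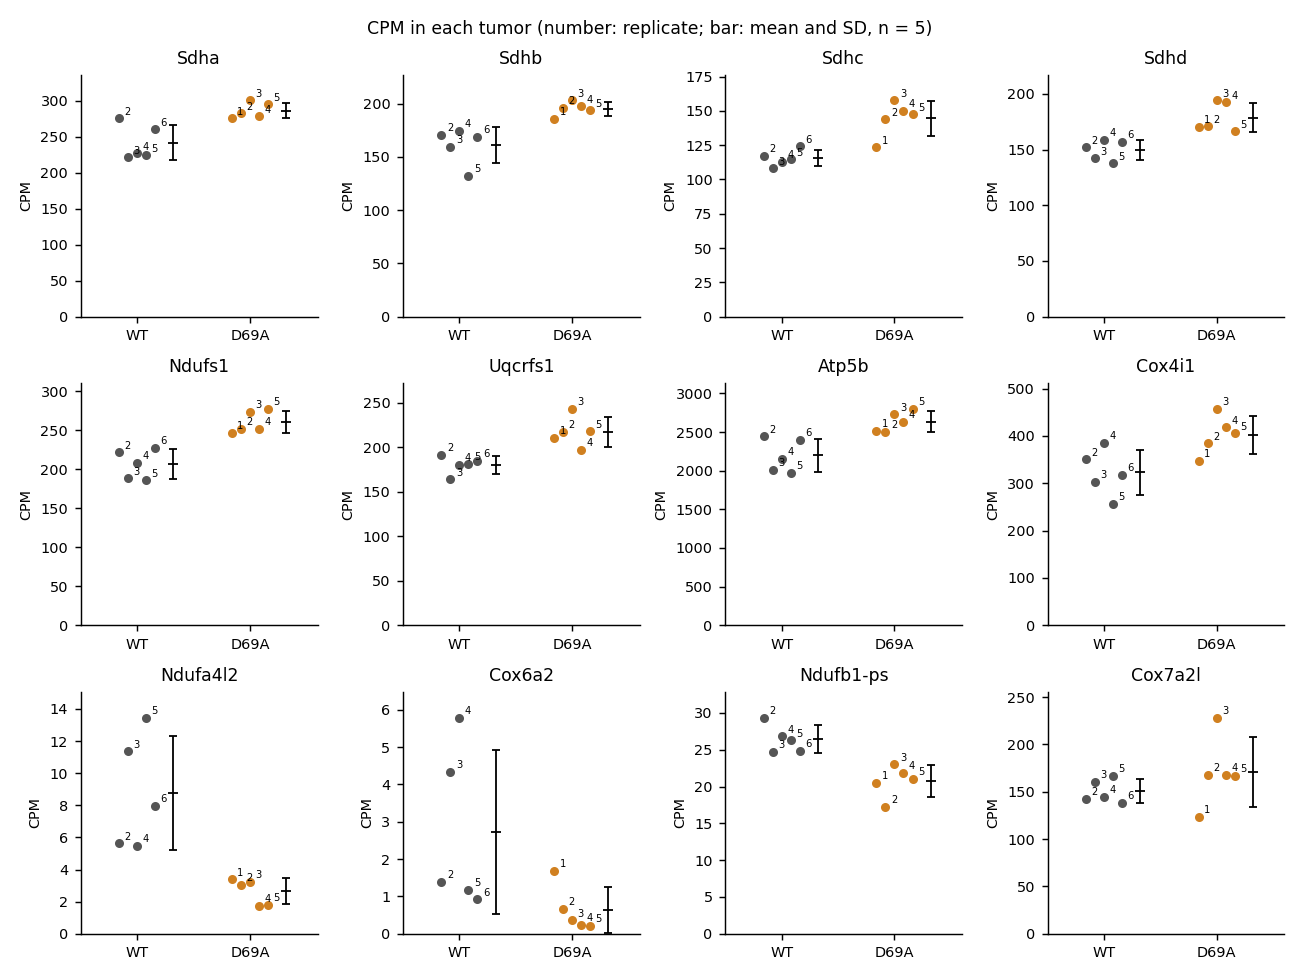
CPM of 12 members in each tumor, with WT tumors in grey, D69A tumors in orange, the replicate number beside each point and the mean with its SD (n = 5) at the right of each group. Ndufa4l2 and Ndufb1-ps are lower and Ndufs1, Uqcrfs1 and the Sdh genes higher in D69A tumors, while Cox7a2l overlaps between groups from 123.3 to 228.4 CPM in the D69A tumors.

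Complex III passes electrons from ubiquinol to cytochrome c, and 4 of its 8 members rose, with a median log2 fold change of 0.14 and 0 members lower. The 3 genes for its large core proteins and its Rieske iron-sulfur protein all rose (Uqcrc1, Uqcrc2 and Uqcrfs1, log2 fold changes 0.19, 0.22 and 0.27). Uqcrfs1, the Rieske gene on chromosome 13 (30540308 to 30545362), stood at 191.6, 163.9, 180.6, 181.7 and 184.8 CPM in WT and at 210.6, 217.8, 243.1, 197.5 and 218.1 CPM in D69A tumors. The groups did not overlap (SE 0.06, edgeR adjusted p = 0.00631). Uqcrc1 lost its call in 5 fits without 1 tumor (D69A tumor 3, 4 or 5, WT tumor 3 or 4), with an edgeR adjusted p of up to 0.0920.

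Of the 5 small subunits of complex III, Uqcrh, the hinge protein gene, was higher. It had the largest increase of any member, with a log2 fold change of 0.35 (SE 0.11, edgeR adjusted p = 0.0223). It stood at 110.6, 82.9, 106.2, 90.8 and 102.3 CPM in WT and at 106.4, 123.3, 155.0, 115.3 and 129.9 CPM in D69A tumors, and only D69A tumor 1 lay within the WT range. Uqcrb averaged 91.5 ± 6.65 CPM in the WT group and 85.8 ± 6.08 CPM in the D69A group (n = 5 each, SD). It (log2 fold change -0.09), Uqcrq (0.09), Uqcr10 (0.01) and Uqcr11 (0.0045) did not pass. Uqcr10 had the highest level per exon length in the complex, at 98.0 ± 16.2 CPM in the WT group and 98.8 ± 13.2 CPM in the D69A group (n = 5 each, SD), and the sign of its change turned in 6 other settings.

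Complex IV, cytochrome c oxidase, had 11 members other than the tissue-restricted isoforms. Of these 2 rose (18.2%, against 18.8% of all tested genes) and 0 fell. Cox4i1 encodes the common form of subunit 4, which is part of the regulation of the enzyme by ATP. It stood at 350.7, 303.1, 385.0, 257.0 and 318.1 CPM in WT and at 347.8, 384.7, 456.7, 417.8 and 405.0 CPM in D69A tumors, so D69A tumors 1 and 2 lay within the WT range (log2 fold change 0.32, SE 0.11, edgeR adjusted p = 0.0329). Its call was lost with library size only (edgeR adjusted p = 0.0690) and without D69A tumor 3, 4 or 5 or WT tumor 3 or 6 (up to 0.0666). Cox7a2, the common form of subunit 7a, averaged 125.1 ± 14.3 CPM in the WT group and 152.4 ± 20.6 CPM in the D69A group (n = 5 each, SD). It passed narrowly (log2 fold change 0.28, SE 0.10, edgeR adjusted p = 0.0458). Its call did not hold in 6 of 10 fits that left out 1 tumor (D69A tumor 3, 4 or 5, WT tumor 2, 3 or 6; up to 0.0943).

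The other 9 (Cox5a, Cox5b, Cox6a1, Cox6b1, Cox6c, Cox7a2l, Cox7b, Cox7c and Cox8a) had log2 fold changes from -0.13 to 0.18 and did not pass. Cox8a, with the highest level per exon length in the complex, was 285.9 ± 35.6 CPM in the WT group and 296.4 ± 36.8 CPM in the D69A group (n = 5 each, SD). Cox7a2l encodes a factor that joins complexes III and IV into supercomplexes. It stood at 142.3, 160.3, 144.8, 167.1 and 138.3 CPM in WT and at 123.3, 167.9, 228.4, 167.9 and 167.0 CPM in D69A tumors, where tumor 1 was below and tumor 3 above all others. Without D69A tumor 1 it passed the threshold (log2 fold change 0.29, edgeR adjusted p = 0.0403), against 0.18 with all tumors.

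ATP synthase had 6 of 17 members higher (35.3%, against 18.8% of all tested genes) and 0 lower. Its median log2 fold change was 0.16. In its F1 head, which makes ATP, the genes for the large alpha, beta and gamma subunits rose (Atp5a1, Atp5b and Atp5c1, log2 fold changes 0.28, 0.26 and 0.23). Those for delta and epsilon (Atp5d and Atp5e, 0.16 and 0.06) did not pass. Atp5b on chromosome 10 (128083273 to 128090391) had the highest level of any member, also per exon length. It stood at 2443, 2015, 2151, 1976 and 2398 CPM in WT and at 2514, 2504, 2731, 2633 and 2798 CPM in D69A tumors, without overlap (SE 0.08, edgeR adjusted p = 0.0162). With the 3 tumors richest in skeletal muscle markers left out, Atp5b and Atp5a1 did not pass (edgeR adjusted p = 0.0872 and 0.116). Atp5c1 lost its call without D69A tumor 2, D69A tumor 4 or WT tumor 2 (edgeR adjusted p of up to 0.0588).

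Of the 3 genes that encode the same c-ring protein with different targeting sequences, Atp5g2 and Atp5g3 rose (log2 fold changes 0.21 and 0.21) and Atp5g1 did not pass (0.11). Both calls were near the threshold and were each lost in 7 fits without 1 tumor, with edgeR adjusted p of up to 0.0794 for Atp5g2 (without D69A tumor 2, 3 or 5 or WT tumor 3, 4, 5 or 6) and 0.0883 for Atp5g3 (without D69A tumor 2, 3, 4 or 5 or WT tumor 3, 5 or 6). In the peripheral stalk, which holds the head still, Atp5o rose and Atp5f1, Atp5h and Atp5j did not pass (0.10 to 0.21). Atp5o stood at 232.6, 193.0, 230.7, 195.2 and 212.0 CPM in WT and at 243.1, 246.4, 268.9, 238.8 and 254.6 CPM in D69A tumors (log2 fold change 0.24, SE 0.07). For Atp5o 35.6% of the exon sequence lies opposite other annotated genes and 12.3% is shared with a second gene of the same symbol on its strand.

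None of the 4 small membrane subunits (Atp5j2, Atp5k, Atp5l and Atp5mpl) passed. Atp5k, which links ATP synthase into dimers, had 13.4, 10.5, 10.9, 8.73 and 11.1 CPM in WT and 9.78, 6.21, 9.64, 9.999 and 9.31 CPM in D69A tumors (log2 fold change -0.28, SE 0.15). Atp5s encodes a coupling factor that is no fixed part of the enzyme, and averaged 8.97 ± 1.61 CPM in the WT group and 10.8 ± 0.355 CPM in the D69A group (n = 5 each, SD). It passed only without WT tumor 6 (log2 fold change 0.34, edgeR adjusted p = 0.0439), against 0.26 with all tumors.

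The share of higher calls was larger among members with long coding sequences. Coding length and level were not used to choose the members, and the classes below were set after the values were seen. Of 20 members with over 600 coding bases 11 were higher (55%) and 0 lower, of 39 members with over 300 and up to 600 bases 7 and 0, and of 22 members with up to 300 bases 2 and 2. The median log2 fold change was 0.18, 0.08 and 0.03 in these classes. Among all tested genes the share of higher calls was 19.7%, 13.7% and 8.24% in the same order. The long members also had higher levels, with a median of 223.0 CPM against 83.7 CPM in the shortest class, and a smaller median SE, 0.07 against 0.11.

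**Figure D3:**
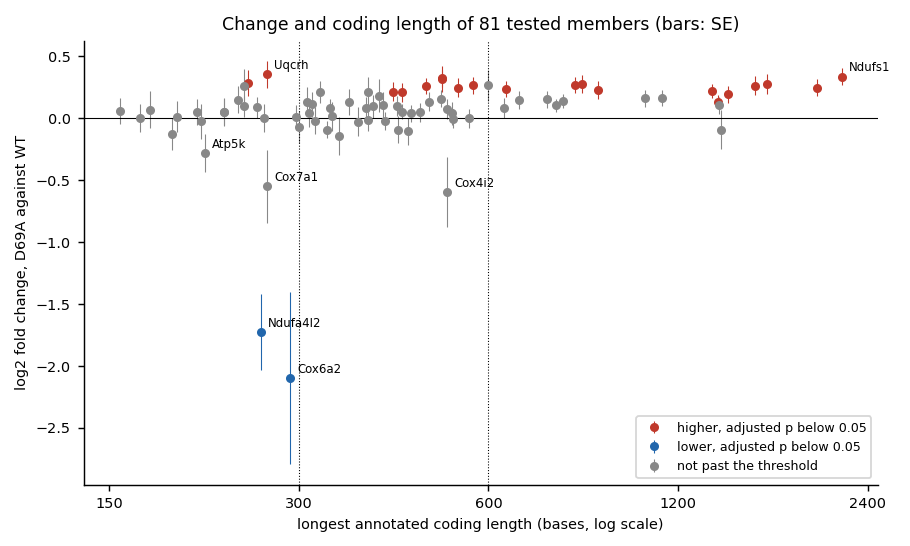
Log2 fold change of D69A against WT tumors for the 81 tested members with an annotated coding sequence, against its length in bases on a log axis, with bars for the SE and dotted lines at 300 and 600 bases. Right of 600 bases 11 of 20 points are past the threshold and higher. Up to 300 bases 2 of 22 points are past it and higher (Uqcrh and Cox7a2), and 2 are lower (the low isoforms Ndufa4l2 and Cox6a2).

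Short and long members did not vary alike between tumors of a group. The median log2 deviation of the members with up to 300 coding bases from their mean over the 10 tumors was 0.24, -0.22, 0.08, -0.09 and -0.10 in WT tumors 2 to 6, and -0.09, -0.23, 0.22, 0.09 and 0.09 in D69A tumors 1 to 5. For members with over 600 bases it was 0.01, -0.16, -0.05, -0.21 and -0.02 in WT tumors and 0.03, 0.05, 0.19, 0.10 and 0.13 in D69A tumors. By this measure the long members lay higher in every D69A tumor than in every WT tumor, narrowly (0.03 in D69A tumor 1, 0.01 in WT tumor 2). Since 11 of these 20 had already been called higher from the same values, the separation is no result apart from those calls. The short members overlapped widely, with WT tumor 2 high and D69A tumor 2 low. The longest reading frame of each member, equal in length to the annotated coding sequence for 72 of 85, was searched for copies. Near-identical copies elsewhere in the annotation (at least 95% identity over 80% of that frame) were found for 18 members. Among them were Atp5k, Atp5l, Cox7c and Uqcrb, and also Atp5f1, Atp5o and Ndufs3, which have over 600 coding bases. The part of such copies in the difference between short and long members was not tested, and for only 2 members a copy was in the table. Reads of these can be split or lost in counting, and for Cox5b the copy Gm11273 was itself in the table with 7681 counts, against 59774 for Cox5b.

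The tissue-restricted isoforms were low in these tumors, and Ndufa4l2 and Cox6a2 were lower in D69A tumors. Of 7 such genes 4 could be tested, 2 fell and 2 did not pass, against 24.7% lower over all tested genes. Ndufa4l2 on chromosome 10 (127514967 to 127517154) is a paralog of Ndufa4 that is induced by hypoxia and found in pericytes. It stood at 5.63, 11.4, 5.47, 13.5 and 7.96 CPM in WT and at 3.39, 3.03, 3.24, 1.75 and 1.82 CPM in D69A tumors. Every WT tumor was above every D69A tumor, with WT tumors 3 and 5 highest, and the log2 fold change was -1.73 (SE 0.31, edgeR adjusted p = 0.00151). Ndufa4, the common paralog, now counted as a complex IV subunit, did not pass (log2 fold change 0.26, SE 0.14).

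Of 10 pericyte and smooth muscle markers 8 could be tested, and 4 were lower in D69A tumors (Rgs5, Acta2, Notch3 and Myh11). The other 4 did not pass, with log2 fold changes of -0.37 for Cspg4, -0.14 for Pdgfrb, -0.03 for Abcc9 and 0.46 for Kcnj8, and Cnn1 and Higd1b were too low to test. Their summed level was 104 to 146 CPM in WT and 72.3 to 95.8 CPM in D69A tumors, without overlap, and the part of this shift in the Ndufa4l2 difference was not tested. Rgs5, a pericyte marker, had a log2 fold change of -0.71 and Acta2, a smooth muscle actin, of -1.38.

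Cox6a2 on chromosome 7 (128205435 to 128206387) encodes the heart and skeletal muscle form of subunit 6a. It stood at 1.40, 4.34, 5.79, 1.18 and 0.92 CPM in WT and at 1.68, 0.67, 0.36, 0.24 and 0.22 CPM in D69A tumors, so D69A tumor 1 lay within the WT range. The log2 fold change was -2.10 (SE 0.70, edgeR adjusted p = 0.0314). The call was lost without D69A tumor 2 (edgeR adjusted p = 0.0616), 3 (0.0697), 4 (0.0704) or 5 (0.0691) and without WT tumor 3 (0.0717) or 4 (0.0847). The 3 highest tumors were WT tumors 4 and 3 and D69A tumor 1, which also had the highest summed skeletal muscle markers (1919, 1283 and 641 CPM, against 3.80 to 134 CPM in the others). None of the 12 skeletal muscle markers passed the threshold (edgeR, 0 at an unadjusted p below 0.05), but all 12 had a negative log2 fold change, with a median of -2.09, and their part in the Cox6a2 difference was not tested. Without those 3 tumors Cox6a2 was still lower, with an edgeR adjusted p of 0.0254. Of the Cox6a2 exon sequence 10.3% lies opposite exons of Itgad. Reads of these 2 genes cannot be told apart there unless strand was used in counting.

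**Figure D4:**
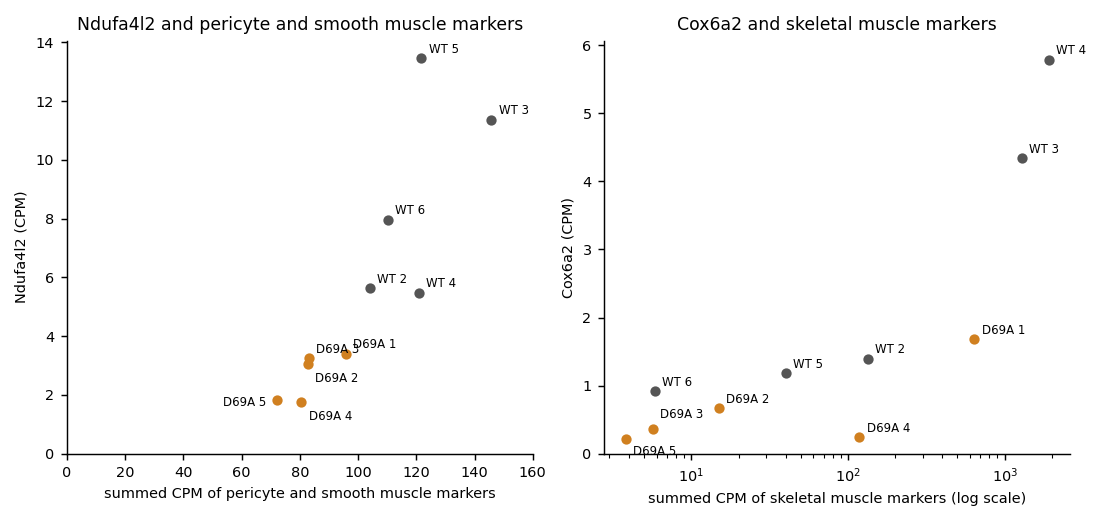
Ndufa4l2 CPM against the summed CPM of 10 pericyte and smooth muscle markers (left) and Cox6a2 CPM against the summed CPM of 12 skeletal muscle markers on a log axis (right), 1 point per tumor, WT grey and D69A orange. WT tumors lie above D69A tumors on both axes at left, and at right WT tumors 3 and 4 stand apart at 4.34 and 5.79 CPM.

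The remaining isoforms were low and did not pass or could not be tested. Cox4i2, the lung form of subunit 4, whose gene responds to oxygen, had 0.93, 0.98, 0.56, 1.02 and 1.03 CPM in WT and 0.51, 0.42, 0.63, 0.89 and 0.54 CPM in D69A tumors (log2 fold change -0.60, SE 0.28, not past the threshold). Cox7a1, the heart and muscle form of subunit 7a, had 0.93, 0.90, 1.35, 1.04 and 0.50 CPM in WT and 0.59, 0.56, 0.75, 0.86 and 0.49 CPM in D69A tumors (log2 fold change -0.55, SE 0.29, not past the threshold). Cox8b, a muscle form of subunit 8, was seen in WT tumors 3 and 4 (56 and 67 counts) and in D69A tumors 1, 3 and 4 (15, 10 and 6 counts), with 0 counts in the others. A count of 0 allows up to 0.0775 to 0.115 CPM, the value of 3 counts, and covers counting error only. The testis forms Cox6b2 and Cox7b2 had 51 and 34 counts over all 10 tumors, too few to test. Cox6b2 had 0, 14, 9, 14 and 7 counts in WT tumors 2 to 6 and 4, 0, 0, 3 and 0 counts in D69A tumors 1 to 5. Cox7b2 had 4, 2, 2, 0 and 2 counts in the WT tumors and 5, 6, 4, 6 and 3 counts in the D69A tumors. Of 6 male germ cell markers 3 were in the table, at up to 0.266 CPM summed in a tumor.

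Ratios of paralogs within a tumor do not depend on library scaling, and the tumor labels were permuted exactly, in both directions, to compare 7 pairs. The log2 ratio of Ndufa4l2 to Ndufa4 was -4.99 ± 0.82 in WT and -6.94 ± 0.62 in D69A tumors (SD, n = 5 each), a difference of -1.95 (exact permutation p = 0.00794, the smallest possible). The ratios of Cox7a1 to Cox7a2 (-0.78, exact permutation p = 0.0159), Cox4i2 to Cox4i1 (-0.93, exact permutation p = 0.0238) and Cox6a2 to Cox6a1 (-2.21, exact permutation p = 0.0476) were also lower in D69A tumors. Adjusted over the 7 pairs none of these passed 0.05, with adjusted exact permutation p of 0.0556 for the first 3 and 0.0833 for Cox6a2 to Cox6a1. By itself the smallest possible p adjusts to 0.0556 over 7 pairs. A pair could thus not pass alone, however far apart the groups lay. The common forms Cox7a2 and Cox4i1 were themselves called higher (log2 fold changes 0.28 and 0.32), while Cox7a1 and Cox4i2 did not pass as single genes. A part of these 2 ratio differences is thus the rise of the common form. Differences of the other pairs were -2.49 for Cox6b2 to Cox6b1, -0.12 for Cox7a2l to Cox7a2 and -0.24 for Cox8b to Cox8a (exact permutation p = 0.0794, 0.310 and 0.960). Those with Cox6b2 and Cox8b rest on tumors with 0 counts and so on the 0.5 counts added to each gene.

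Other mitochondrial genes were described beside the members, by lists of their function. The TCA cycle feeds electrons to complexes I and II. Of its 17 genes 13 were higher (76.5%, against 18.8% of all tested genes) and 0 lower, with a median log2 fold change of 0.22. Fh1, which encodes fumarase, had a log2 fold change of 0.31. The summed level of the list was 3305 to 4053 CPM in WT and 4454 to 4657 CPM in D69A tumors, without overlap. With the 3 tumors richest in skeletal muscle markers left out 8 of the 17 passed.

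Genes that build the chain or express its mitochondrial part showed few calls, against 18.8% higher and 24.7% lower over all tested genes. Of 13 mitochondrially encoded subunits 1 was higher and 0 lower, and their summed level overlapped between groups, at 24264 to 34262 CPM in WT and 21476 to 30657 CPM in D69A tumors. Summed member CPM over summed mitochondrially encoded CPM was 0.57, 0.44, 0.38, 0.48 and 0.51 in WT tumors 2 to 6 and 0.62, 0.49, 0.51, 0.56 and 0.52 in D69A tumors 1 to 5. Of 47 tested assembly factors 4 were higher and 3 lower, led by Uqcc3 for complex III (log2 fold change -0.41) and Timmdc1 for complex I (0.31). Of 78 mitochondrial ribosomal protein genes 3 were higher and 4 lower, led by Mrpl34 (0.45) and Mrps34 (-0.25).

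Of 16 tested electron carrier genes 3 were higher (Etfa, Etfb and Etfdh, 18.8%) and 0 lower. Etfdh and Etfa, of the route that brings electrons from fatty acid oxidation to ubiquinone, had log2 fold changes of 0.31 and 0.24. Of 24 tested genes of protein import 5 were higher (20.8%) and 0 lower. Those were led by Tomm70a (0.25), an outer membrane receptor, and Timm17a (0.28), a part of the inner membrane channel. Among 21 regulators of mitochondrial gene expression 4 were higher (19%) and 3 lower (14.3%). Over all tested genes 18.8% were higher and 24.7% lower, so the higher shares of these lists lay near the background. Tfb2m, a mitochondrial transcription factor, had a log2 fold change of 0.39 and Gabpa, the DNA-binding subunit of GABP, of 0.36. Gabpa and the member Atp5j lie opposite each other, with 12.7% of the Atp5j exon sequence opposite exons of Gabpa.

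**Figure D5:**
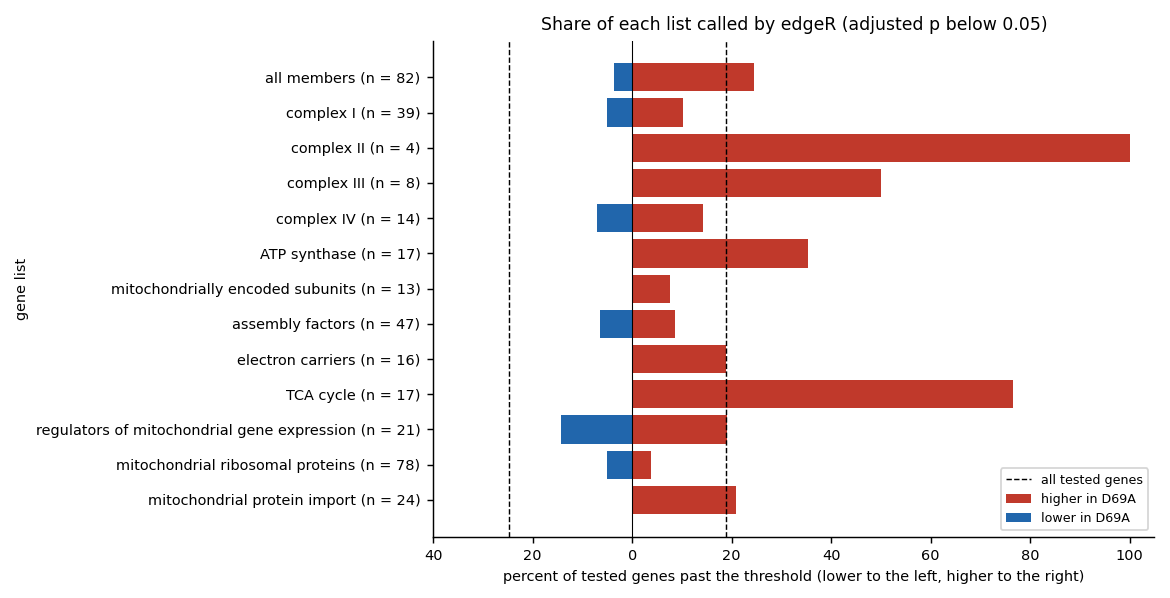
Percent of the tested genes of each list that were higher (red, to the right) or lower (blue, to the left) in D69A tumors at an adjusted p below 0.05, with dashed lines at the shares over all tested genes (18.8% higher, 24.7% lower). Complex II (4 of 4) and the TCA cycle (13 of 17) reach farthest to the right, while complex I (4 of 39) and the mitochondrial ribosomal proteins (3 of 78) stay left of the line.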

How the data were processed

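Bulk RNA-seq of 10 tumors, 5 per group, was deposited by the authors as 1 table of read counts per Ensembl gene, unscaled and whole. The submitters' processing notes name fastp, HISAT, Bowtie, RSEM and the build mm10. Their roles and versions, the annotation and the use of strand were not given in the sources used here. The deposited counts may be rounded, since RSEM gives estimates. Columns were assigned to tumors by name. Symbols were matched through GENCODE mouse release 21 for 17670 identifiers, and 67 were not matched. Genes passed edgeR's filterByExpr by group, TMM set the library scale, and the quasi-likelihood test of edgeR (4.0.16, under R 4.3.3) set D69A tumors against WT tumors. Its p-values were adjusted over 13798 genes (Benjamini-Hochberg). SEs were derived from the F statistic. Exon lengths are unions of annotated exons, and coding length is the longest annotated coding sequence. The test was run on simulated counts in which few genes changed, as many up as down. In the tumors 43.5% of tested genes passed, so that check does not cover library scaling under so wide a shift. Every pair of tumors within a group differed by more than sampling noise (smallest chi-square per degree of freedom 13.9).

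The members and lists were chosen with earlier results of these data known. Values in every tumor are given for tissue-restricted isoforms and members outside the enzymes, for the member of each complex with the smallest p in either direction or the highest level per exon length, and for the 5 largest increases and decreases, with group means for those of little change. Sdha, Sdhb and Ndufb5 were added after their values were seen. From other lists the 2 genes with the smallest p are named. Values of 2 genes that these rules or calls would name are not reported here, and the counts include them. Alternatives were DESeq2 (1.42.0), limma-voom (limma 3.58.1), scaling by library size alone, by RLE or by upper quartile, 2 other filters, a block for the replicate number, and fits without some tumors. A comparison of protein sequences between paralogs was not run.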

Additional observations from a re-analysis of the deposited data

Results flagged for a closer look

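Of 50 groups of 5 tumors examined for the members with values in every tumor, 3 (6%) held a tumor that stood far from the other 4, measured against the range of the group. Chance gives about 1 in 20 such groups. Cox4i2 in WT tumor 4 was lowest at 0.56 CPM, against 0.93 to 1.03 CPM in the other WT tumors. Atp5k in D69A tumor 2 was lowest at 6.21 CPM, against 9.31 to 9.999 CPM in the other D69A tumors. Atp5s in D69A tumor 5 was lowest at 10.2 CPM, against 10.8 to 11.0 CPM.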

How the results depend on the processing

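The number of members higher in D69A tumors was 20, and came to 13 with library size only, to 10 with the replicate number as a block and to 13 to 24 when 1 tumor was left out. The number lower was 3 and lay between 2 and 3 without 1 tumor, and the median log2 fold change lay between 0.06 and 0.14. DESeq2 called 23 higher and limma-voom 19. The share of higher among called members went from 87% to 81.2% with library size only. Complex II kept 4 of 4 except for the fit with the 3 tumors richest in muscle markers left out (3), where the TCA cycle list fell from 13 to 8. Uqcr10 turned sign with upper quartile scaling (-0.024), library size only (-0.038), a stricter low count filter (-0.018) and without D69A tumor 3 (-0.016), D69A tumor 5 (-0.0014) or WT tumor 3 (-0.061), and was not called in any of these. Without 1 tumor it lay between -0.061 and 0.078. With those 3 tumors left out the paralog ratios differed by -1.16 (Cox4i2 to Cox4i1, exact permutation p = 0.0571), -1.78 (Cox6a2 to Cox6a1, 0.0571), -0.63 (Cox7a1 to Cox7a2, 0.0857) and 1.93 (Cox8b to Cox8a, 0.314). With 1 tumor left out these ranged from -1.15 to -0.80 for Cox4i2 to Cox4i1, from -2.68 to -1.84 for Cox6a2 to Cox6a1, from -3.45 to -2.13 for Cox6b2 to Cox6b1 and from -1.04 to 0.81 for Cox8b to Cox8a. The cause of these changes was not tested. Tumors with the same number did not deviate together in all cases (correlations 0.18, -0.42, 0.20 and 0.17 for numbers 2 to 5), and not every tumor correlated best with its own number, so the numbers were not taken as pairs, and the block lowers the residual degrees of freedom.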
